A study of Mus musculus with 8 samples.

Results

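The genes described here were 9 genes of estrogen and progesterone action, chosen by name and matched by Ensembl identifier in a table of 55890 genes: the estrogen receptors Esr1, Esr2 and Gper1, the progesterone receptor Pgr, the estrogen-responsive gene Greb1, the aromatase gene Cyp19a1, the coregulators Ncoa1 and Ncoa2, and the caveolin gene Cav1. RNA-seq of the hypothalamus was compared between 4 POMC-C451Af/f pools and 4 control pools of gonadal-intact female mice aged 16 weeks. Each pool held RNA of 2 animals. The POMC-C451Af/f mice carried a floxed C451A allele of Esr1 and a Cre transgene driven by the Pomc promoter, so that the exchange of a single codon was limited to cells with a history of Pomc promoter activity. The controls are labelled wildtype, while the methods describe Cre-negative littermates homozygous for the floxed C451A allele, an allele that both groups would then share. Gene counts do not separate mutated from intact Esr1 transcripts, and no other readout of recombination was available in the counts.

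The total estimated count per pool was 36095253 to 40498166 in POMC-C451Af/f and 37841365 to 48942116 in controls. The levels below are counts per 1000000 counts (CPM) on library sizes scaled by the trimmed mean of M values, whose scaling factors lay between 0.984 and 1.02. After genes with low counts were removed 18637 genes were tested, with 9 of the 9 genes among them.

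Estradiol acts through nuclear receptors that bind DNA as dimers, recruit coregulators of the p160 family and change transcription of genes such as Pgr. A fraction of estrogen receptor alpha, the product of Esr1, is palmitoylated at a cysteine and held at the plasma membrane, where it associates with caveolin and starts rapid kinase signaling. In the hypothalamus these receptors serve feedback of ovarian steroids, sexual behaviour and energy balance, and aromatase in brain converts androgens to estrogens locally.

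The labelled tissue was first compared with its markers. All 20 genes of the hypothalamus list were tested, and Pmch, the precursor of melanin-concentrating hormone and the most abundant gene of that list, held 457.9, 520.6, 312.0 and 402.9 CPM in the POMC-C451Af/f pools, in the order of replicates 1 to 4, and 630.6, 427.2, 513.2 and 444.9 CPM in the controls in the same order. The summed level of the hypothalamus list was 1520, 1733, 1131 and 1321 CPM in the POMC-C451Af/f pools and 2035, 1468, 1727 and 1444 CPM in the control pools. The hypothalamus markers were thus present in every pool, with a summed level that varied 1.80-fold.

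Several pools stood apart in genes of neighbouring tissue. The pituitary list, of which 7 of 12 genes were tested, summed to 1478, 116.3, 45.4 and 55.00 CPM in controls, with the hormone gene Prl at 1013 CPM in control replicate 1, and to 246.4, 55.1, 35.6 and 213.9 CPM in POMC-C451Af/f pools. Its untested genes were Lhb, Fshb, Pou1f1, Gnrhr and Ghrhr. The midbrain dopaminergic list (10 of 10 tested) summed to 330.2, 260.6, 516.2 and 376.9 CPM in POMC-C451Af/f pools and 228.6, 216.0, 263.5 and 285.4 CPM in controls, with Aldh1a1 as its most abundant gene. Its dopamine transporter gene Slc6a3 held 36.4, 12.2, 89.98 and 53.8 CPM against 6.90, 4.24, 15.8 and 26.3 CPM and was highest in POMC-C451Af/f replicates 3 and 4. The thalamus list (6 of 6 tested, most abundant gene Slc17a6) summed to 488.5, 388.2, 738.1 and 569.2 CPM in POMC-C451Af/f pools and 342.9, 667.7, 436.0 and 427.5 CPM in controls. The preoptic list (8 of 8 tested, most abundant gene Zic1) summed to 129.9, 122.6, 162.2 and 154.3 CPM and 115.2, 152.0, 134.0 and 150.4 CPM. No gene of these lists was at 0 in every pool. The part of this variation in the levels below was not tested other than by leaving pools out and by the list means as covariates. In bulk tissue, fewer cells of a type and less RNA per cell cannot be told apart.

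The codon that gives the mutant its name lies in the part of Esr1 that encodes the ligand-binding domain. The sequences below are shown because they mark the residue that the genotype changes and the matching place in Esr2. They were read from the GENCODE M21 transcripts (GRCm38), 5′ to 3′, with the Esr1 codon that C451A changes (residues counted from the first of the protein) and codon 436 of Esr2, paired with it by protein alignment, in capitals.
Esr1: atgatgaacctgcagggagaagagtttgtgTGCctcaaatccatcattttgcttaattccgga
Esr2: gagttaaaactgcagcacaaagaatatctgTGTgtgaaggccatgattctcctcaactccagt
Both codons encode cysteine. The codon numbers and the protein alignment refer to the longest annotated coding sequence of each gene, so the number 436 holds for that Esr2 sequence. The Esr1 codon lies on the plus strand at chr10:4969262-4969264 and the Esr2 codon on the minus strand at chr12:76133838-76133840. In each gene 61 of the 63 bases came from 1 coding exon and the last 2 bases from the next. The windows had 39 of 63 bases in common, and over 532 aligned codons 50.2% encoded the same residue. Since C451A is carried by Esr1 alone, the Esr2 sequence was the same in both groups by design. The Esr1 window is present in 5 of 10 annotated Esr1 transcripts.

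Across all genes, the quasi-likelihood test of edgeR, adjusted by the Benjamini-Hochberg method, called 4 of 18637 genes (0.0215%) at an adjusted p of at most 0.05 with an absolute log2 fold change over 0.5, and 0 of the 9 genes were among them. DESeq2 called 13 of 32164 genes (0.0404%), again with 0 of the 9 among them, and had 906 genes (2.82%) at an unadjusted p under 0.05, 1 of the 9 among these. At an unadjusted p under 0.05 edgeR returned 950 genes (5.1%), of which 446 (2.39%) were lower in POMC-C451Af/f, and 1 of the 9 genes, Esr1, was among the latter. The values of the POMC-C451Af/f and control pools overlapped for 9 of 9 genes, while the groups did not overlap for 524 of the 18637 genes (2.81%). Of the 9 genes, 5 were higher and 4 were lower in POMC-C451Af/f on average, with a median log2 fold change of 0.01 against 0.00 for all genes tested. The median absolute log2 fold change was 0.06 for the 9 genes and 0.06 for all genes tested. The p-values measure the spread between pools of 2 animals.

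**Figure D1:**
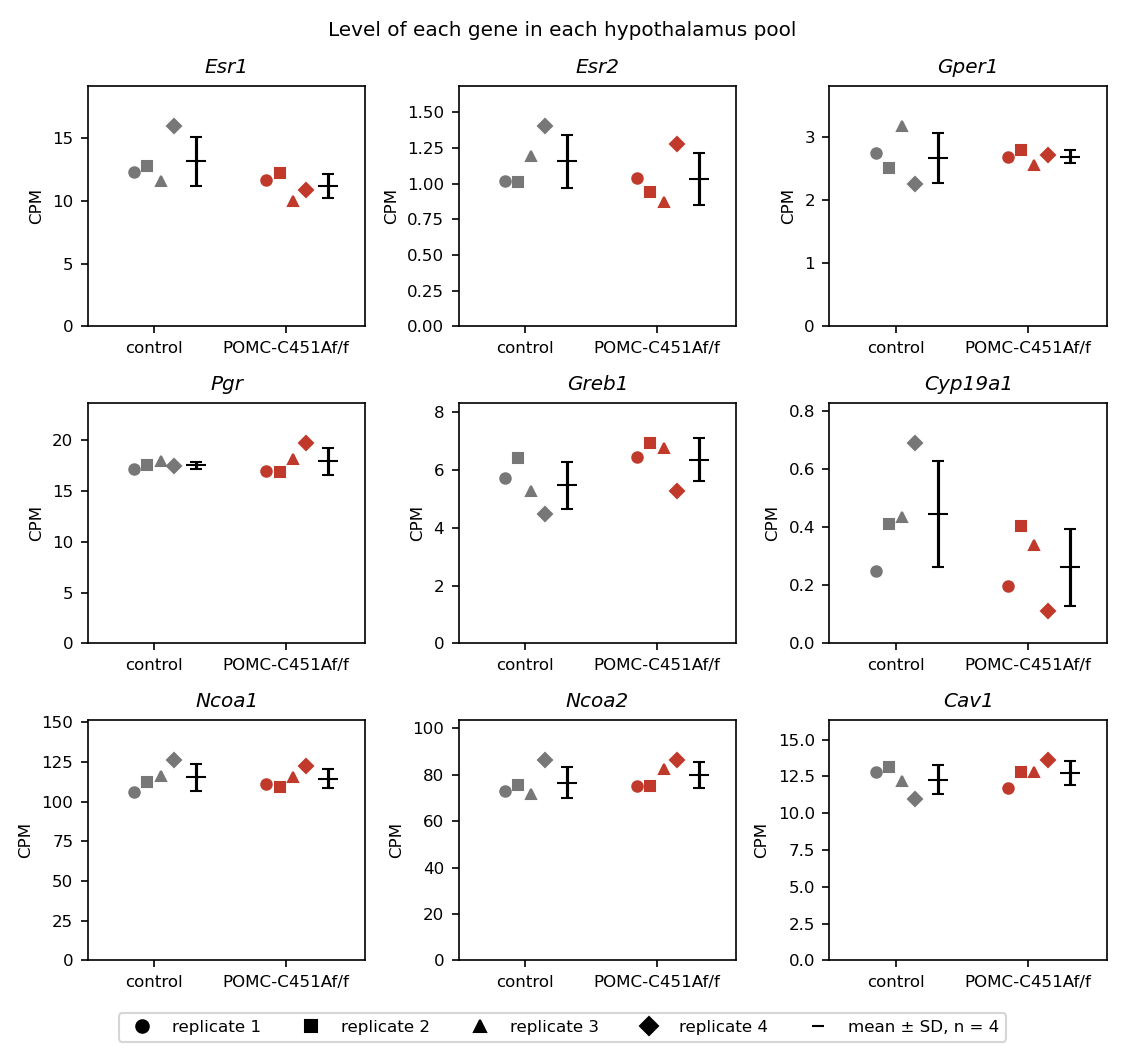
Level of each of the 9 genes in CPM (y axis, from 0) in the 4 control pools (grey) and the 4 POMC-C451Af/f pools (red), with a symbol per replicate number and mean ± SD beside the points. The groups overlap in every panel, and control replicate 4 is the highest pool for Esr1 (15.97 CPM) and Cyp19a1 (0.689 CPM) and the lowest for Greb1 (4.48 CPM).

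Esr1 encodes estrogen receptor alpha, the targeted gene, and spans chr10:4611593-5005614 on the plus strand (GRCm38). Its level was 11.6, 12.2, 9.99 and 10.9 CPM in the POMC-C451Af/f pools and 12.3, 12.8, 11.6 and 15.97 CPM in the control pools, again in the order of replicates 1 to 4. Control replicate 4 was the highest of the 8 pools and POMC-C451Af/f replicate 3 the lowest, and POMC-C451Af/f replicates 1 and 2 lay within the control range. The means were 11.2 ± 0.975 CPM (SD, n = 4) and 13.2 ± 1.94 CPM (SD, n = 4), a log2 fold change of -0.23 (SE 0.10, 95% interval -0.46 to -0.0047) and did not pass after adjustment over all genes (adjusted p 0.878, edgeR). Its interval reached from a level of 0.725 to 0.997 times the control level. Without control replicate 4 the log2 fold change was -0.13, with an unadjusted p of 0.144 in edgeR. Gene counts do not separate mutated from intact Esr1 transcripts, and RNA from cells without Cre is included in each pool. These counts thus check the amount of total Esr1 RNA and not the genotype.

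The other nuclear receptor gene, Esr2, encodes estrogen receptor beta and was present at about 1 CPM, on 31.0 to 58.4 estimated counts per pool. It held 1.04, 0.940, 0.870 and 1.281 CPM in POMC-C451Af/f pools and 1.02, 1.01, 1.19 and 1.404 CPM in control pools. Replicate 4 was the highest pool in each genotype, and the ranges overlapped, with POMC-C451Af/f replicates 2 and 3 below each control pool. The log2 fold change was -0.16 (95% interval -0.57 to 0.25), with an adjusted p of 0.916 in edgeR. It was -0.06 without control replicate 4 and -0.28 without POMC-C451Af/f replicate 4.

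Gper1 encodes the G protein-coupled estrogen receptor of the cell membrane. Its level was 2.68, 2.79, 2.56 and 2.70 CPM in POMC-C451Af/f pools and 2.74, 2.50, 3.17 and 2.25 CPM in controls. The POMC-C451Af/f pools fell inside the control range, with an SD of 0.0976 CPM against 0.389 CPM in controls. The log2 fold change was 0.01 (95% interval -0.27 to 0.29).

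Pgr, the progesterone receptor gene, is induced by estradiol in hypothalamic neurons. Its level was 16.98, 16.9, 18.2 and 19.7 CPM in POMC-C451Af/f pools and 17.2, 17.5, 17.97 and 17.5 CPM in control pools. It was the steadiest of the 9 genes over the 8 pools, with a coefficient of variation of 5.23%, and the 4 control pools differed by less than 1 CPM. The log2 fold change was 0.03 (SE 0.06, 95% interval -0.09 to 0.16), which leaves a range from 0.938 to 1.11 times the control level. The paper reports higher serum estradiol, testosterone and progesterone in POMC-C451Af/f females of this age, so the genotypes were not compared at equal hormone levels. The part of these hormones in the levels of Pgr, Greb1 and other estrogen-responsive genes was not tested.

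Greb1 encodes a chromatin-associated cofactor of estrogen receptor alpha that is itself estrogen-responsive in several tissues. It held 6.46, 6.93, 6.78 and 5.28 CPM in POMC-C451Af/f pools and 5.72, 6.42, 5.27 and 4.48 CPM in control pools. POMC-C451Af/f replicates 1 to 3 were each above the highest control pool, while POMC-C451Af/f replicate 4 lay at the level of control replicate 3. The means were 6.36 ± 0.750 and 5.47 ± 0.814 CPM (SD, n = 4 each), with a log2 fold change of 0.22 (SE 0.13, 95% interval -0.06 to 0.50) and an adjusted p of 0.878 in edgeR. With single pools left out it ran from 0.13, without control replicate 4, to 0.30.

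The sequences before the annotated starts of Pgr and Greb1 are shown because these are the estrogen-responsive genes among the 9. They are the 250 bases before each RefSeq start (GRCm38.p6), 5′ to 3′ on the strand of the gene, with each GGTCA or its complement TGACC, an arm of the palindromic estrogen response element, in capitals. Pgr has 1 start on the plus strand (window chr9:8899583-8899832), and Greb1 has 2 on the minus strand (windows chr12:16800887-16801136 and chr12:16757240-16757489).
Pgr: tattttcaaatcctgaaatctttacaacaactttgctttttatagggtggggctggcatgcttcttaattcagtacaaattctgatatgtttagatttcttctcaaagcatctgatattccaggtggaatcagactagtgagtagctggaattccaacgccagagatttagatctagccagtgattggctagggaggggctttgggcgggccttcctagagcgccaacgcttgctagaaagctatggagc
Greb1 start 1: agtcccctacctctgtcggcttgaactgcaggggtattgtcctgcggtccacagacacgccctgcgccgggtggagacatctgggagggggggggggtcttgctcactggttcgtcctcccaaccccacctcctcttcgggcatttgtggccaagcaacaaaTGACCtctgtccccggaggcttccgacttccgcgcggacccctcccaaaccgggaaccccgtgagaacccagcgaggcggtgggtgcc
Greb1 start 2: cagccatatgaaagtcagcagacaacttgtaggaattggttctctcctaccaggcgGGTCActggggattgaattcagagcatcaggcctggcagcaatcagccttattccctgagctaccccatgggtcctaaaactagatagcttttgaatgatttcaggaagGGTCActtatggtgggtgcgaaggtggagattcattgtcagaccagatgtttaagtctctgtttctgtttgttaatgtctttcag
The Greb1 windows held 1 arm, with its first base at -88, and 2 arms, at -194 and -85, counted from the start. The Pgr window held none. Over the 13 windows of 8 of the 9 genes, 6 held an arm on either strand, against 35.2% of all 32851 RefSeq windows of the same length. The full palindrome GGTCANNNTGACC was in 0 of the 13 windows and in 0.0639% of all windows. No window of Ncoa2 was used. A match describes letters in this window, and binding was not measured.

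Cyp19a1, which encodes aromatase, the enzyme that makes estrogens from androgens, was the lowest of the 9 genes. Its estimated counts were 8.01, 15, 12 and 4 in POMC-C451Af/f replicates 1 to 4 and 10, 17.9, 21.2 and 26.00 in control replicates 1 to 4. These correspond to 0.198, 0.403, 0.337 and 0.111 CPM and 0.248, 0.410, 0.434 and 0.689 CPM. Control replicate 4 was the highest pool and POMC-C451Af/f replicate 4 the lowest, a 6.19-fold span. Each POMC-C451Af/f pool was below control replicates 2, 3 and 4, while control replicate 1 lay within the POMC-C451Af/f range. The log2 fold change was -0.75 (SE 0.41, 95% interval -1.66 to 0.16), with an adjusted p of 0.878 in edgeR. The average difference was the largest of the 9 genes and also the least precise, and without control replicate 4 it was -0.48.

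The coregulators were the most abundant of the 9 genes. Ncoa1, also known as SRC-1, held 111.2, 109.0, 115.7 and 122.2 CPM in POMC-C451Af/f pools and 106.4, 112.6, 115.9 and 126.2 CPM in controls, so that the POMC-C451Af/f pools lay inside the control range and replicate 4 was highest in each group. Its log2 fold change was -0.01 (SE 0.05, 95% interval -0.13 to 0.11). Ncoa2, also known as GRIP1, held 75.2, 75.3, 82.7 and 86.4 CPM and 73.1, 75.4, 71.9 and 86.3 CPM, with POMC-C451Af/f replicate 4 and control replicate 4 again the highest and level with each other. Its log2 fold change was 0.06 (95% interval -0.09 to 0.21).

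Ncoa1 lies on chromosome 12 near Pomc, the gene whose promoter drives the Cre transgene. On GRCm38 Pomc ends 286.7 kb and its neighbour Efr3b 208.4 kb before Ncoa1. Efr3b, which encodes a plasma membrane scaffold of phosphatidylinositol 4-kinase, held 599.2, 604.9, 536.0 and 585.3 CPM in POMC-C451Af/f pools and 270.8, 287.9, 297.3 and 288.6 CPM in controls and was called (log2 fold change 1.02, SE 0.04, adjusted p 3.56e-06 in edgeR). Pomc itself, the precursor of melanocortins and beta-endorphin, held 49.5, 50.2, 35.8 and 30.6 CPM and 98.9, 49.7, 50.5 and 50.8 CPM and was not called. The nearest tested genes on either side of Ncoa1, Ptrhd1 and 2900045O20Rik, had log2 fold changes of -0.00 and 0.22 and were not called. The log2 fold change of Ncoa1 was -0.01 in the same fit. The insertion site of the Cre transgene is not given in the sources used here, and no cause of these values was tested.

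Cav1 encodes caveolin-1, the coat protein of caveolae, to which palmitoylated estrogen receptor alpha binds, and in brain it is mainly a gene of endothelium. It held 11.7, 12.8, 12.8 and 13.6 CPM in POMC-C451Af/f pools and 12.8, 13.2, 12.2 and 10.96 CPM in control pools. The control pools and POMC-C451Af/f pools overlapped, with control replicate 4 lowest and POMC-C451Af/f replicate 4 highest. The log2 fold change was 0.05 (95% interval -0.11 to 0.21). The brain endothelium list (10 of 10 tested, most abundant gene Flt1) summed to 269.0, 287.3, 292.6 and 298.9 CPM in POMC-C451Af/f pools and 271.4, 290.0, 285.0 and 257.4 CPM in controls, and its lowest pool was that with the lowest Cav1. Over the 8 pools the mean log2 level of this list had a Pearson r of 0.86 with Cav1, given as a description with no test. The choroid plexus list had r = 0.79 with Cav1 and the mural cell list r = 0.66, so a high r was not particular to endothelium.

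**Figure D2:**
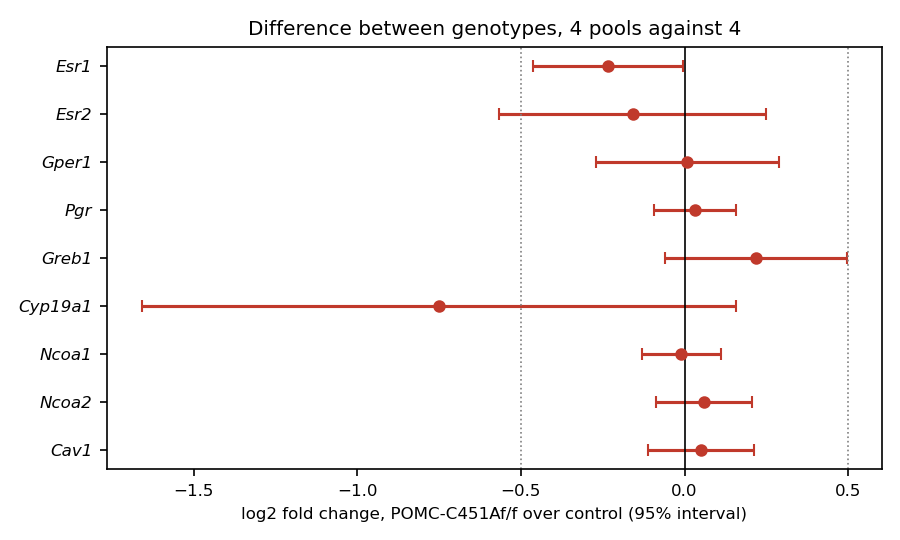
Log2 fold change of POMC-C451Af/f over control (x axis) for each of the 9 genes, as a point with its 95% interval from edgeR's quasi-likelihood fit on 4 pools against 4, with dotted lines at an absolute log2 fold change of 0.5. The intervals of 8 genes include 0, that of Esr1 ends at -0.0047, and that of Cyp19a1 is the widest.

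The 9 genes differed far more from each other than between genotypes. Per kb of annotated exon length, the mean over the 8 pools was 13.4 ± 0.774 CPM for Ncoa1, 5.004 ± 0.378 for Ncoa2, 3.63 ± 0.248 for Cav1, 2.08 ± 0.109 for Pgr, 1.05 ± 0.104 for Gper1, 0.891 ± 0.130 for Esr1, 0.618 ± 0.0906 for Greb1, 0.325 ± 0.0539 for Esr2 and 0.0782 ± 0.0391 for Cyp19a1 (SD, n = 8 pools of both genotypes). On this scale the ranges of neighbours in the order did not overlap except for Gper1 and Esr1. With the longest coding transcript in place of all exons, the level of Esr1 was 1.92 CPM per kb and exceeded that of Gper1 at 1.05, so the order of this pair rested on the length used. The other 7 places in the order were the same with both lengths.

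**Figure D3:**
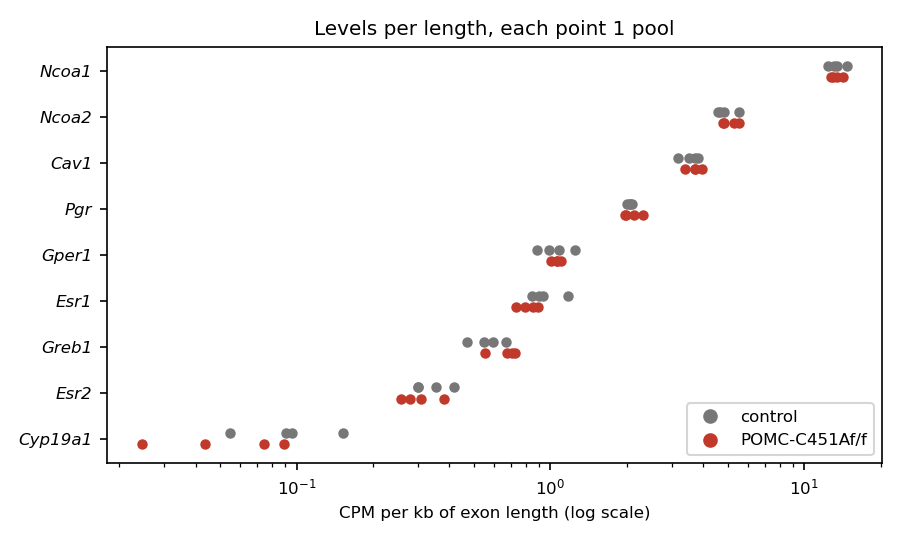
CPM per kb of exon length (x axis, log scale) of the 9 genes, 1 point per pool, in grey for control and red for POMC-C451Af/f. Ncoa1 is at 12.4 to 14.7 CPM per kb, Cyp19a1 at 0.0246 to 0.152, and the genotypes overlap for each gene.

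The pools varied together in some of these genes. Among 36 pairs, 4 had an unadjusted p under 0.05 in an exact two-sided permutation test of Pearson's r on log2(CPM + 0.5), and 1 had an adjusted p of at most 0.05 over the 36. That pair was Esr2 and Greb1 (r = -0.94, exact permutation p = 0.00067, adjusted p = 0.0241, Spearman rho = -0.88, exact permutation p = 0.00724, adjusted p = 0.261, n = 8 pools). The pools with the highest Esr2, replicate 4 of both genotypes, had the lowest and the third lowest value of Greb1. Without the 2 pools farthest from the median of Esr2, which were these pools, r was -0.86, and with genotype means subtracted it was -0.95. Esr2 rested on 31.0 to 58.4 estimated counts, and the adjusted rank correlation did not pass 0.05.

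Ncoa1 and Ncoa2 had r = 0.81 across pools (exact permutation p = 0.0146, adjusted p = 0.263, rho = 0.60, exact permutation p = 0.132), which did not pass after adjustment. It was 0.69 without the 2 pools farthest from the median of Ncoa1. Esr2 with Ncoa1 had r = 0.77 (exact permutation p = 0.0269, adjusted p = 0.323, rho = 0.64, exact permutation p = 0.0962), which fell to 0.14 without the 2 farthest pools and so rested on them. Greb1 with Ncoa1 had r = -0.71 (exact permutation p = 0.0485, adjusted p = 0.396, rho = -0.67, exact permutation p = 0.0831), and r = -0.40 without the 2 farthest pools. The receptor Esr1 and its responsive gene Greb1 had r = -0.57 (exact permutation p = 0.139, adjusted p = 0.443, rho = -0.29, exact permutation p = 0.501), which turned to 0.62 without the 2 farthest pools, POMC-C451Af/f replicate 3 and control replicate 4. No relation of Esr1 with Greb1 thus held across the pools.

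**Figure D4:**
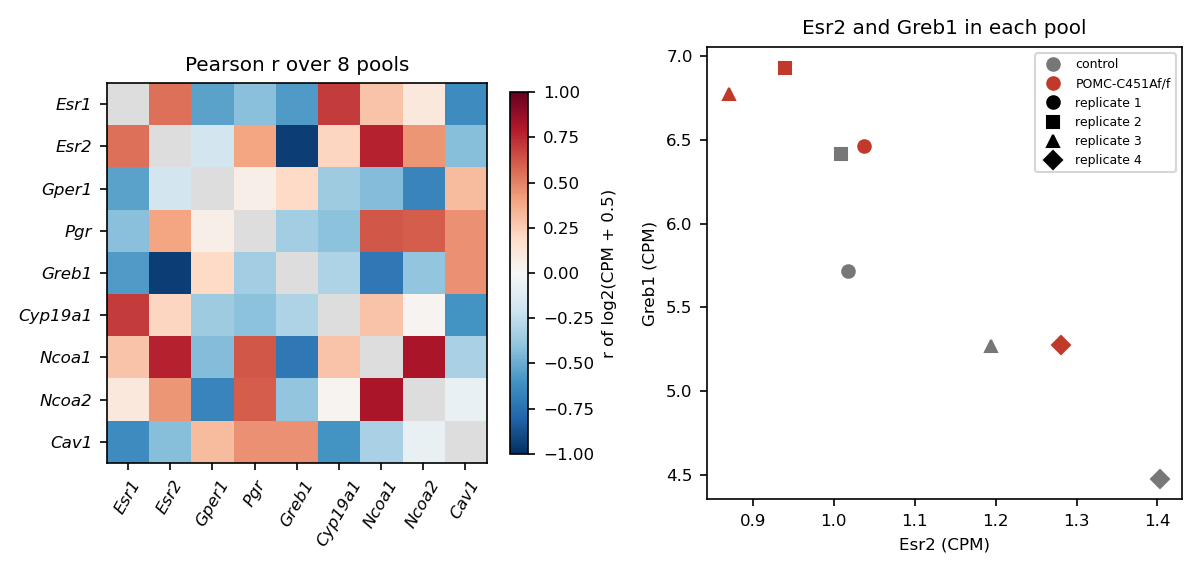
Left, Pearson r of log2(CPM + 0.5) over 8 pools for each of the 36 pairs of the 9 genes, from blue (negative) to red (positive). Right, Esr2 against Greb1 in CPM, 1 symbol per pool, where r on the log2 scale is -0.94.

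Among the marker lists, that of the preoptic area had the largest absolute r with Esr2, Ncoa1 and Greb1, as a description with no test. Its mean log2 level over the 8 pools had r = 0.77 with Esr2, 0.74 with Ncoa1 and -0.77 with Greb1. With Esr1 it had r = 0.60, while the brain endothelium list had r = -0.78 and the choroid plexus list r = -0.73. For Ncoa2 and Gper1 the largest was with the leptomeningeal fibroblast list (r = -0.84 and 0.80), and for Pgr with the hypothalamus list (r = -0.71). The hypothalamus list had r = -0.68 with Ncoa1 and -0.76 with Ncoa2, and the leptomeningeal list r = -0.69 with Ncoa1. By its summed level, in contrast, the preoptic list was highest in replicate 3 among POMC-C451Af/f pools and in replicate 2 among control pools. With the mean log2 level of a list as a covariate the log2 fold change of Esr2, -0.16 without one, was 0.02 for the preoptic list and -0.22 for the hypothalamus list, both chosen after seeing the data, and -0.30 for the midbrain list. With the same 3 covariates that of Greb1, 0.22 without one, was 0.08, 0.26 and 0.39, and that of Ncoa1, -0.01 without one, was 0.07, -0.06 and -0.11.

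The genes with the most similar patterns to Esr1, among 15452 tested genes with a mean of at least 1 CPM, were Anxa7 (r = 0.98), Golgb1 (r = 0.96) and Gm38279 (r = 0.96) over the 8 pools. The genes most like Pgr were Cab39, Ppm1a and Tmem65 (each r = 0.96). Those most like Greb1 were Nif3l1 (r = 0.99), Col12a1 (r = 0.96) and Edem2 (r = 0.95). For Cyp19a1 they were Gm17922 (r = 0.95), Ccdc159 (r = 0.93) and Zfp994 (r = 0.92). These were picked as the highest of many values over 8 pools and carry no test, and none of the 12 was called between genotypes in edgeR.

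The other genes of these pathways were taken from lists. Of 13 other steroid receptors and membrane progestin receptors tested, 0 were called, 1 was higher and 1 lower at an unadjusted p under 0.05, and their log2 fold changes lay between -0.15 and 0.59 with a median of 0.06, against 0.00 for all genes. Of 20 other coregulators, 0 were called, 1 was lower at an unadjusted p under 0.05, and the log2 fold changes lay between -0.08 and 0.11 with a median of 0.00. Of 7 steroid receptor chaperones, 0 were called and 0 had an unadjusted p under 0.05, with log2 fold changes between -0.14 and 0.02 and a median of -0.01.

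Of 22 genes of sex steroid synthesis and metabolism, 15 were tested and 0 called, with a median log2 fold change of 0.02. Hsd3b1, Hsd3b6, Cyp17a1, Srd5a2, Akr1c18, Sult1e1 and Sts were not tested. Hsd17b7, whose enzyme reduces estrone to estradiol and also serves cholesterol synthesis, had the lowest p of this list and held 15.8, 13.2, 18.4 and 16.6 CPM in POMC-C451Af/f pools and 11.00, 13.4, 14.3 and 13.4 CPM in controls (log2 fold change 0.29, adjusted p 0.878 in edgeR). POMC-C451Af/f replicate 2 lay within the control range and the other 3 above it.

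Of 21 membrane estrogen signaling partners tested, 0 were called, and 15 were higher and 6 lower in POMC-C451Af/f on average, 1 of each at an unadjusted p under 0.05, with a median of 0.03. Egfr, the epidermal growth factor receptor gene, held 13.8, 12.3, 12.7 and 14.7 CPM in POMC-C451Af/f pools and 10.7, 11.7, 11.4 and 12.3 CPM in controls, so that the groups were narrowly separate (log2 fold change 0.22, adjusted p 0.878 in edgeR). Cav3 was not tested.

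Of 15 genes known to respond to estradiol in hypothalamus that were tested, a list that includes Pgr and Greb1, 0 were called, 4 were higher and 11 lower, 3 of the latter at an unadjusted p under 0.05, with a median of -0.07 against 0.00 for all genes. With single pools left out this median ran from -0.13 to -0.02. Kiss1 was not tested. Irs4, an insulin receptor substrate of hypothalamic neurons, held 123.1, 119.1, 103.0 and 107.5 CPM in POMC-C451Af/f pools and 139.7, 122.6, 140.3 and 143.3 CPM in controls (log2 fold change -0.27, adjusted p 0.878 in edgeR), with POMC-C451Af/f replicate 1 just above control replicate 2. Tac2, the neurokinin B gene, held 28.4, 27.1, 27.5 and 23.2 CPM and 30.6, 29.6, 30.1 and 31.8 CPM, with each POMC-C451Af/f pool below each control pool (log2 fold change -0.20, adjusted p 0.878 in edgeR). The hypothalamus list moved the same way on average, with 17 of 20 genes lower and a median of -0.16 (-0.24 to -0.09 with single pools left out), and its part in these values was not tested. In that list Trh, the thyrotropin-releasing hormone gene, held 74.7, 82.7, 65.6 and 81.99 CPM and 94.1, 86.3, 89.8 and 88.6 CPM (log2 fold change -0.23).

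**Figure D5:**
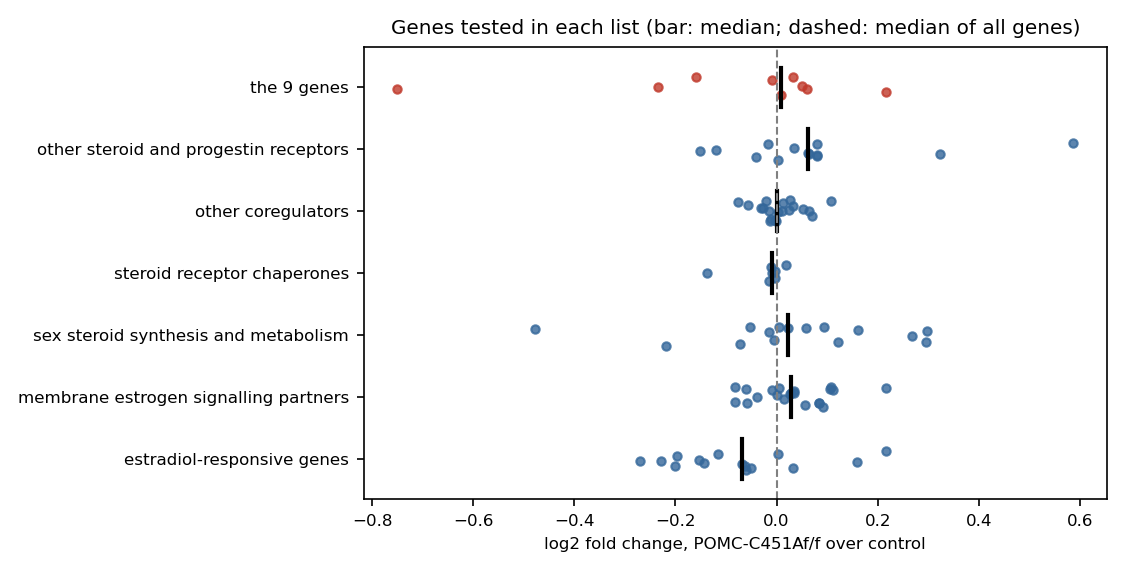
Log2 fold change of POMC-C451Af/f over control (x axis) for each gene tested in the 9-gene set (red) and in 6 pathway lists (blue), with the median of each list as a black bar and the median of all genes as a dashed line. The points of other coregulators and chaperones lie within -0.14 to 0.11, and the estradiol-responsive genes have the lowest median, -0.07.

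The genes of other cell types gave the frame for these values. In the midbrain dopaminergic list 10 of 10 genes were higher in POMC-C451Af/f on average. Their median log2 fold change was 0.70 (0.52 to 0.86 with single pools left out). An unadjusted p under 0.05 was found for 9 of them in edgeR, and for 5 to 10 with single pools left out. In the edgeR and DESeq2 fits run here 0 were called. Th, the tyrosine hydroxylase gene, held 60.3, 55.4, 90.8 and 73.1 CPM against 47.02, 42.00, 50.9 and 51.1 CPM, with the groups separate. En1, Chrna6, Slc10a4 and Aldh1a1 had log2 fold changes of 1.99, 1.05, 0.86 and 0.48, as descriptions of the same pools. In the thalamus list 6 of 6 genes were higher on average (median 0.22), with a median from -0.01, without POMC-C451Af/f replicate 3, to 0.57, without control replicate 2, when single pools were left out. In the preoptic list 7 of 8 were lower (median -0.24, and -0.28 to -0.13 with single pools left out). In the ventromedial list 5 of 6 were lower (median -0.08, and -0.13 to -0.01 with single pools left out, most abundant gene Adcyap1), and in the pituitary list 7 of 7 tested genes were lower (median -0.57). The direction of the pituitary list rested on control replicate 1, since without that pool 6 of its 7 genes were higher (median 0.33). None of these genes was called in edgeR.

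The glial and vascular lists come next, with the range of each median over fits with single pools left out in parentheses. Astrocyte genes had a median of 0.03 (-0.01 to 0.04) over 7 genes, of which 4 were higher and 3 lower, 2 and 1 of them at an unadjusted p under 0.05. Aqp4, the aquaporin gene of astrocyte endfeet, held 145.5, 139.0, 162.6 and 140.5 CPM in POMC-C451Af/f pools and 122.0, 117.9, 118.0 and 123.9 CPM in controls (log2 fold change 0.29, adjusted p 0.198 in edgeR), with the groups separate and the difference not called. Slc1a2, the most abundant astrocyte gene, had a log2 fold change of 0.08. Microglia genes had a median of 0.08 (0.04 to 0.12) over 7 genes, of which 6 were higher and 1 lower, with Cx3cr1 at a log2 fold change of 0.13. Brain endothelium had a median of 0.07 (0.05 to 0.08) over 10 genes, of which 7 were higher and 3 lower. Its log2 fold changes ran from -0.11 to 0.22, the highest for Tek. Mural cells had a median of -0.00 (-0.03 to 0.06) over 8 genes, 4 higher and 4 lower, with Rgs5 most abundant. Leptomeningeal fibroblast genes (8 genes, Igf2 most abundant) had a median of -0.21 (-0.47 to -0.03). The last lists moved to either side of 0 as single pools were left out, with a median for choroid plexus genes (7 genes, Clic6 most abundant) of 0.09 (-0.04 to 0.42), for striatum genes (7 genes, Pde10a most abundant) of 0.05 (-0.08 to 0.13) and for cortex and hippocampus genes (6 of 7 tested, Emx1 not tested, Prox1 most abundant) of 0.02 (-0.04 to 0.13).

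The genes next to the 9 on their chromosomes did not differ between genotypes beyond the threshold either. Of 18 nearest tested genes, 0 had an unadjusted p under 0.05, their log2 fold changes ran from -0.22 to 0.22, and the groups overlapped for each of them. They were Ccdc170 and Syne1 beside Esr1, Syne2 and Mthfd1 beside Esr2, Gpr146 and Zfand2a beside Gper1, Gm32014 and Gm16485 beside Pgr, Ntsr2 and E2f6 beside Greb1, Tnfaip8l3 and Gldn beside Cyp19a1, Slco5a1 and Tram1 beside Ncoa2, and Cav2 and Met beside Cav1, besides the pair named for Ncoa1. Gm16485, a noncoding gene that starts 3.18 kb after Pgr, held 12.17 and 11.98 CPM on average in POMC-C451Af/f and control pools. Cav2, the caveolin-2 gene 17.2 kb before Cav1, held 23.1 and 21.5 CPM.

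Shared sequence, which bears on the assignment of reads, was found for 5 of the 9 genes. At 90% identity or more over at least 50 bases, the longest coding transcripts of Esr1, Gper1, Pgr and Cav1 had no match in other annotated genes. Greb1 shared 11.7% of its length with other genes, the longest stretch, 779 bases, with the overlapping antisense gene Gm48140, which had 0 CPM. Esr2 shared 9.25%, Ncoa2 6.65%, Cyp19a1 5.47% (with 68 other genes) and Ncoa1 0.982%. Whether counting used the strand of the reads was not given in the sources used here, so reads of Greb1 and of its antisense gene cannot be told apart with certainty.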

How the data were processed

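Hypothalamic RNA of 8 pools (2 animals each) was sequenced from poly(A)-enriched stranded libraries. The authors quantified reads with Salmon 1.10 (FastQC 0.12.1 before it), by the submitters' processing notes on GRCm39, and deposited estimated counts per gene. A further deposited table with the authors' own DESeq2 1.40 comparison (fold changes and p-values) was not used. Estimated counts were rounded, filtered with filterByExpr (defaults: 10 counts, 15 in total) and scaled by TMM, and genotypes were compared with edgeR 4.0.16 (quasi-likelihood, R 4.3.3) with Benjamini-Hochberg adjustment over 18637 genes. DESeq2 1.42.0, on genes with any count, was an alternative. The procedure was tested on simulated data. For edgeR these were drawn gene by gene from fitted means and dispersions, without shared tissue differences between pools. CPM used the deposited estimated counts, 36095253 to 48942116 per pool, where 3 counts correspond to 0.0614 to 0.0842 CPM. Correlations used log2(CPM + 0.5) with exact permutation tests. Symbols matched 51424 of 55890 identifiers (99.6% of counts). Positions and lengths came from GENCODE M21 (GRCm38), an older annotation than that of the counts, and promoters from RefSeq (GRCm38.p6).

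The 9 genes and the gene lists were chosen with earlier results of these data known. Named were the 9 genes, the 15 list genes with the smallest unadjusted p under 0.05, most abundant genes of marker lists, the nearest tested neighbours, Pomc and Efr3b, the gene sharing the longest stretch with Greb1, and the 3 genes most like each of Esr1, Pgr, Greb1 and Cyp19a1. No 2 pools agreed within sampling noise (lowest chi-square per degree of freedom 4.58). Alternatives were other tools, scaling, filters, covariates and left-out pools. The covariates of the thalamus, pituitary, hypothalamus and preoptic lists and DESeq2 on the genes of the main fit were chosen after seeing the data.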

Additional observations from a re-analysis of the deposited data

Results flagged for a closer look

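Of 164 groups of 4 pools examined (68 genes and the marker lists, in each genotype), 12 had 1 pool whose gap to the nearest other pool took most of the group's range, above the 95% critical value of Dixon's test, where chance gives about 5%. None of the 9 genes was among them. In control replicate 1, Prl stood at 1013 CPM (next highest control 68.8), Pomc at 98.9 CPM (next 50.8) and the pituitary list at 1478 CPM (next 116.3), while Flt1 was lowest at 73.9 CPM (next 81.2) and Ppm1a lowest at 226.4 CPM (next 238.1). In control replicate 2 the cortex and hippocampus list was highest at 91.4 CPM (next 50.4). Control replicate 3 was highest in Cab39 at 187.4 CPM (next 178.7), and control replicate 4 in Gm38279 at 4.85 CPM (next 3.67). Among POMC-C451Af/f pools, replicate 2 was highest in Igf2 at 103.5 CPM (next 45.2). Replicate 4 was highest in Clic6 at 19.1 CPM (next 17.6) and lowest in Nif3l1 at 23.9 CPM (next 24.7) and Edem2 at 20.8 CPM (next 23.4). No explanation of these values was tested.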

How the results depend on the processing

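The 9 genes had 0 calls under each alternative run, and the lowest adjusted p of any of them was 0.404, for Ncoa2 with the preoptic list as a covariate. Esr1 and Cyp19a1 were lower and Greb1 was higher in POMC-C451Af/f under each alternative, with log2 fold changes from -0.29 to -0.13 for Esr1, -1.04 to -0.47 for Cyp19a1 and 0.08 to 0.39 for Greb1. An unadjusted p under 0.05 was reached by Esr1 in 12 of 23 alternatives and by Greb1 in 4 of 23. Cyp19a1 reached it in 3 of 22 and Ncoa2 in 1 of 23. Genes called numbered 4, but 13 with DESeq2, both on its 32164 genes and, chosen after seeing the data, on the genes of the main fit, 2 with at least 10 counts in every pool (where Cyp19a1 was not tested), 2 with the replicate block and 7 without POMC-C451Af/f replicates 3 and 4. They numbered 5 with no filter, with robust empirical Bayes and with the midbrain or the hypothalamus list as a covariate. The cause was not tested.

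Esr2, at a log2 fold change of -0.16, and the genes with average differences near 0 changed sign under some alternatives. The cause was not tested. With the midbrain list as a covariate the log2 fold change was -0.033 for Pgr and -0.058 for Ncoa2. With the hypothalamus list, chosen after seeing the data as was the preoptic list, it was -0.013 for Pgr and -0.0057 for Ncoa2. With the preoptic list it was 0.018 for Esr2, -0.050 for Gper1 and 0.070 for Ncoa1. Without POMC-C451Af/f replicates 3 and 4 it was -0.050 for Pgr, -0.026 for Ncoa2 and -0.0031 for Cav1.

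With single pools left out, the log2 fold change ran from -0.29 to -0.13 for Esr1, -0.28 to -0.057 for Esr2, -0.063 to 0.11 for Gper1, -0.017 to 0.057 for Pgr, 0.13 to 0.30 for Greb1, -1.04 to -0.48 for Cyp19a1, -0.047 to 0.035 for Ncoa1, 0.020 to 0.12 for Ncoa2 and 0.00021 to 0.088 for Cav1. Counts of calls ran from 4 to 5. Genes at an unadjusted edgeR p under 0.05 ran from 635 without control replicate 1 to 1773 without POMC-C451Af/f replicate 2. They numbered 950 in the main fit, 559 with the midbrain list as a covariate and 2048 with the preoptic list. Esr1 moved most without control replicate 4. By the methods, animals were pooled at random within each genotype. Whether same-numbered pools shared a step of processing is not given in the sources used here (correlation of their deviations 0.14, -0.18, -0.11 and 0.24). The replicate block took the calls from 4 to 2 and left 0 of the 9 genes called. Esr2 and Cyp19a1 rested on no more than 58.4 and 26.0 estimated counts per pool.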
